A study of Homo sapiens with 6 samples.

Results

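The genes described here lie on the long arm of human chromosome 8. They were taken by position from the deposited table: rows on that chromosome that start beyond the centromere, with the numbered zinc finger (ZNF) genes left out. Of 349 such rows, 11 were ZNF genes, so 338 genes of the 17381 listed remain. The last row before the centromere was HGSNAT, starting at base 43140449 (GRCh38), and the first on the long arm was SPIDR, starting at base 47260878. RefSeq names for GRCh38.p14 matched 335 of the 338, all protein coding, of which 329 start within 5000 bases of the deposited start.

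The long arm of chromosome 8 is one of the chromosome regions most often gained in liver carcinoma. It carries MYC, a transcription factor that drives growth, and many genes of replication, translation, protein breakdown, signalling and the cell surface. A change in the number of copies of a chromosome segment can act on all its genes at once, whereas transcription factors and chromatin act on single genes or neighbourhoods. RNA counts measure transcripts and not DNA copies, and no DNA measurement was used here.

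RNA was sequenced from cells labelled Hep3B, a line from a human hepatocellular carcinoma, that had acquired resistance to the kinase inhibitor sorafenib. The control group has 3 libraries labelled wildtype, and the other group has 3 libraries labelled as a knockout of STIM1, which senses calcium in the endoplasmic reticulum. The labels give no treatment for any of the 6 libraries, so both groups are the resistant line without a stated drug exposure, and they do not say whether the knockout is 1 clone or a pool, or whether libraries came from separate cultures. P-values therefore measure the spread between these libraries, which may be technical.

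Certain labels did not match the data. The genotype field gives STIM1, STIM2 and STIM3 knockout in turn over the knockout libraries, whereas only a STIM1 knockout is named by their titles and by the design text. STIM1 itself stood at 1047, 972 and 836 normalized counts in the control libraries and at 1454, 1439 and 1422 in the others, so its transcript was higher where it was labelled as knocked out. The site of the edit is not given in the sources used here, and the group is called "labelled knockout" throughout. Albumin (ALB) and alpha-fetoprotein (AFP), defining products of fetal liver and Hep3B cells, were at 0 normalized counts in the control group and at 0.396 in the labelled knockout group. Of 10 hepatocyte and fetal liver markers, 7 are listed and 2 reached 10 in the control group, HNF4A at 219 and TF at 12.0. The list's sum was 216 to 260 in the control libraries and 776 to 893 in the labelled knockout libraries, where HNF4A stood at 817, TF at 10.2 and SERPINA1 at 0 against 6.83 in the control group. The summed level of 5 fibroblast markers was 1922 to 1979 in the control libraries and 3097 to 3463 in the others. COL1A1 alone was higher there (1485 and 3111), while DCN went from 107 to 3.95, PDGFRB from 297 to 149, COL3A1 from 57.3 to 14.3 and LUM from 8.66 to 2.60. COL3A1 (control SD 38.8) and LUM (control SD 8.37) had an adjusted p of 0.128 and 0.426 in the authors' deposited table. The sum of 3 endothelial markers was 122 to 161 in the control libraries and 18.6 to 21.9 in the others. That sum followed PECAM1 (123 and 3.01), while VWF stood at 5.60 and 4.91 and CDH5 at 9.18 and 12.3. The sum of 4 blood markers was 22.2 to 92.3 and 4.76 to 11.4, with CD14 at 29.3 and 4.73 and HBB at 22.7 (control SD 37.0) and 2.95. By the authors' deposited table VWF, CDH5 and HBB did not reach an adjusted p under 0.05. PTPRC and CD3E, which define white blood cells and T cells, were at 0.587 and 0 in the control group and at 0 and 0.326 in the other. The part of any such shift in the values below was not tested.

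The deposited table holds group means, from which whole reads per library were recovered. In each group the library of largest size factor is called A, the next B and the last C, and none can be matched to a sample number. They held 13857706 to 16398821 reads in the control group and 12042704 to 15098324 in the labelled knockout group. Over the 52 long arm genes with a mean of at least 1000, the median coefficient of variation was 2.80% and 2.65%. A gene is called when the adjusted p of the authors' deposited table is under 0.05, and the log2 ratio of a gene compares the group means with 1 added to both, labelled knockout over control. Medians and lists use the 251 genes with a mean over both groups of at least 10. A gene high in a single group can pass that filter through that group alone, so counts among the 251 describe them and are not support for a direction.

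Long arm genes were lower in the labelled knockout libraries more often than higher. By the adjusted p of the authors' deposited table, 149 of the 338 genes (44.1%) fell, against a background of 28.8% of all listed genes. In that table's calls, 35 genes (10.4%) rose, against a background of 25.7%, and 154 were not called. Calls in either direction came to 184 genes (54.4%), against a background of 54.5%, so the share that was called was that of the table as a whole and the split by direction was not. The 3 libraries of a group did not overlap with those of the other for 174 genes (51.5%, background 33.2%) that were lower and 44 (13%, background 29.9%) that were higher.

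The median log2 ratio of the 251 genes past the filter was -0.35 (quartiles -0.67 and -0.02), and 192 of them (76.5%) were below 0. Over the 12560 other genes past the same filter the median was -0.01, with 51.0% below 0. Most of the called changes were modest. Past the filter, 141 genes were called lower (background 36.7%) and 35 higher (background 34.2%). Of the 141 falls, 56 were under 0.5 in size on the log2 scale, 35 lay between 0.5 and 1, 28 between 1 and 3, and 22 were over 3. Of the 35 rises, 14 were under 0.5, 13 lay between 0.5 and 1, 8 between 1 and 3, and 0 over 3. With a size of at least 1 on the log2 scale required as well, 59 long arm genes were lower (background 10.9%) and 8 were higher (background 6.21%).

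**Figure D1:**
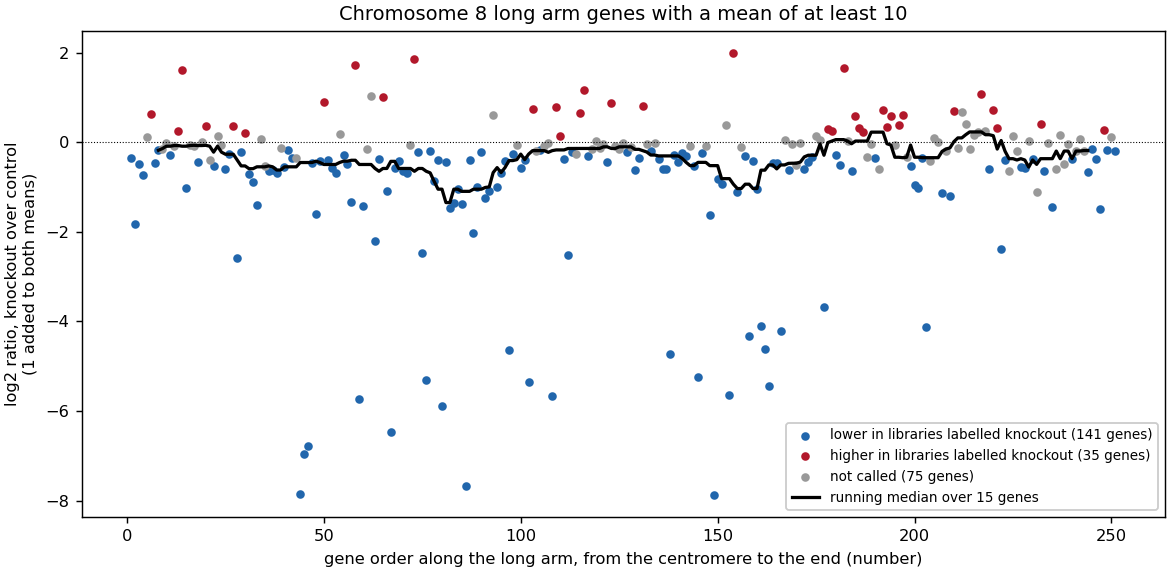
Log2 ratio of each of the 251 long arm genes past the filter (y axis, labelled knockout over control, 1 added to both means) against its order from the centromere to the chromosome end (x axis). Blue points are the 141 genes called lower, red the 35 called higher and grey the 75 not called by the authors' deposited table; the black line is the running median over 15 genes, which is below 0 in 212 of 237 windows.

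The share of all normalized reads that came from the long arm was 2.10%, 2.08% and 2.07% in control libraries A, B and C. It was 1.66%, 1.68% and 1.67% in the labelled knockout libraries. Every control library was above every labelled knockout library, with means of 2.08% ± 0.0172 and 1.67% ± 0.0104 (SD, n = 3 each). The difference of -0.409 percentage points had a two-sided exact permutation p of 0.1, which is the smallest that 3 libraries against 3 can give. The difference was -0.410 points when the 100 most abundant genes of the table were left out. Single genes can still weigh on this share. ASPH fell from a mean of 15239 to 2556 normalized counts and RAD21 from 11162 to 3589.5, and their part in the difference was not tested. Within a library, the median deviation of long arm genes from their own means over the 6 libraries was 0.18, 0.16 and 0.14 on the log2 scale in the control group and -0.17, -0.15 and -0.16 in the other, while that of all other genes averaged 0.0104 ± 0.000938 in the control group and -0.00175 ± 0.000466 in the labelled knockout group (SD, n = 3 each).

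The short arm of the same chromosome moved less. Of its 193 genes, 68 (35.2%) were called lower and 36 (18.7%) higher by the authors' deposited table, and the median log2 ratio of its 143 genes past the filter was -0.17. Its share of normalized reads was 0.855% ± 0.00348 in the control libraries and 0.789% ± 0.00500 in the labelled knockout libraries (SD, n = 3 each; exact permutation p = 0.1). Among the 40 chromosome arms with at least 50 genes past the filter, the long arm of chromosome 8 had the 4th lowest median. The short arms of chromosomes 19 (-0.50), 12 (-0.48) and 16 (-0.45) lay below it, so the direction is not peculiar to chromosome 8.

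**Figure D2:**
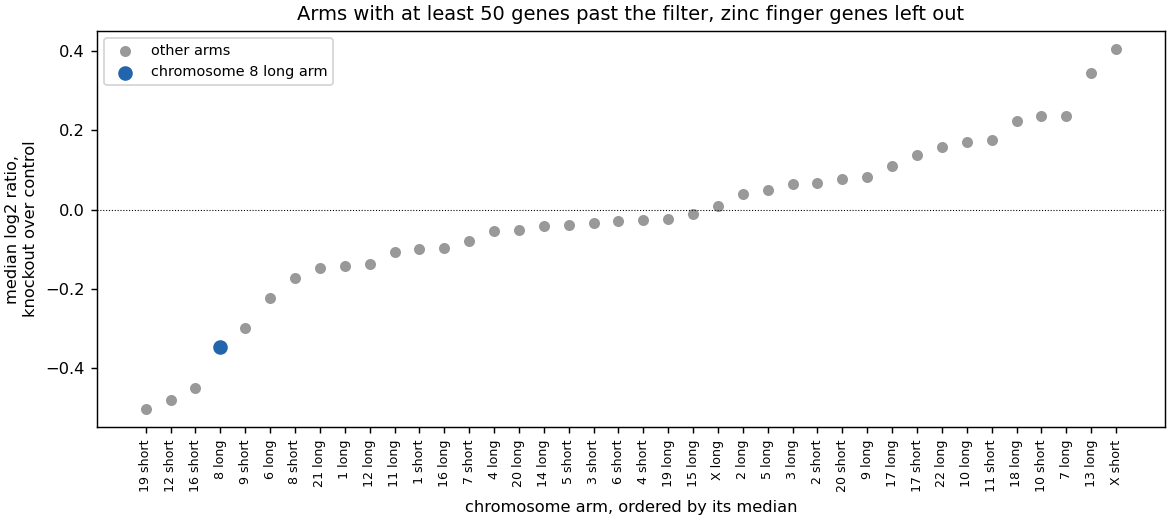
Median log2 ratio (y axis, labelled knockout over control) of the genes past the filter on each of 40 chromosome arms (x axis, ordered by the median), with ZNF genes left out. The long arm of chromosome 8 (blue, -0.35) is the 4th lowest; the short arm of chromosome 8 is at -0.17.

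Lower values ran along most of the arm and were not even. In stretches of 5 Mb that hold at least 5 genes past the filter, 17 of 18 medians were below 0, and 5 of 18 (27.8%) were under -0.5. Elsewhere in the genome 51.8% of 506 such stretches were below 0 and 44 (8.70%) were under -0.5. The lowest stretch ran from 90 to 95 Mb, with a median of -0.999 over 19 genes from DECR1 to TP53INP1, and 6 of the 506 stretches elsewhere were at or under that value. In 15 of the 18 stretches the 3 library medians of the labelled knockout group were all below those of the control group, in 1 they were all above, and in 2 they overlapped. The same count was not made for the 506 stretches elsewhere, so the 15 cannot be called particular to this arm.

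Between 90 and 95 Mb, 17 of 19 genes fell, against 36.7% of all genes past the filter, and the other 2, CDH17 and INTS8, were not called. The stretch was picked for its low median, so this count largely follows from the choice. DECR1, a mitochondrial enzyme that breaks down unsaturated fatty acids (chr8:90001437-90053633, plus strand), stood at 637, 581 and 600.3 normalized counts in the control libraries and at 332, 272 and 273 in the others. The groups did not overlap, and the log2 change was -1.05 ± 0.08 (limma SE; limma adjusted p = 2.56e-08). Further along the stretch TMEM64 and TRIQK, both membrane proteins, had log2 ratios of -1.38 and -2.03, and OTUD6B, a deubiquitinase that lies between them, one of -0.39. PIP4P2, a phosphoinositide phosphatase of the lysosome (chr8:90993802-91040896, minus strand), stood at 195, 188 and 226 in the control libraries and had 0 reads in all 3 labelled knockout libraries, which is at least 196-fold lower with a floor of 3 reads over the group. VIRMA, a scaffold of the complex that methylates adenosine in messenger RNA, has the highest mean of the stretch and fell from 1675 ± 39.1 to 1259 ± 23.7 (SD, n = 3 each). At the far end of the stretch TP53INP1, a stress protein induced by p53 that was picked out after its values were seen, stood at 166, 159 and 186 in the control libraries and at 0, 4.88 and 4.76 in the others. TP53INP1 overlaps NDUFAF6, which leaves its reads uncertain.

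The following stretch, from 95 to 100 Mb, was close to balanced, with 6 genes lower, 5 higher and 7 not called and a median of -0.14. Medians fell again to -0.38 from 105 to 110 Mb, where 7 of 8 genes were lower, and to -0.88 from 115 to 120 Mb, where 10 of 14 were lower, 1 was higher and 3 were not called. Both stretches were named after their values were seen, and 36.7% of all genes past the filter were lower. The longest run of neighbours below 0 among genes past the filter held 20 genes, from ATP6V1C1 to EXT1. Of these, 16 were called lower and 4 were not called, with a median of -0.41. The run was picked for values below 0, so its median and its calls largely follow from the choice. No run length elsewhere in the genome is given. Past 125 Mb the values were nearer to those of the table as a whole. From 130 to 135 Mb the median of 6 genes was 0.09, and ASAP1, a regulator of ARF GTPases and of cell movement, rose there from 1311 ± 33.8 to 1962 ± 62.2 normalized counts (SD, n = 3 each). That stretch had a median of -0.35 when genes under the filter were counted too. In the stretch from 140 to 145 Mb, the most crowded, 21 of 58 genes were lower, 10 higher and 27 not called, with a median of -0.19. Neighbouring genes resembled each other little in size of change, with Pearson's r of 0.14 and Spearman's rho of 0.12 over 250 pairs, given as a description because neighbours share libraries and some share reads.

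**Figure D3:**
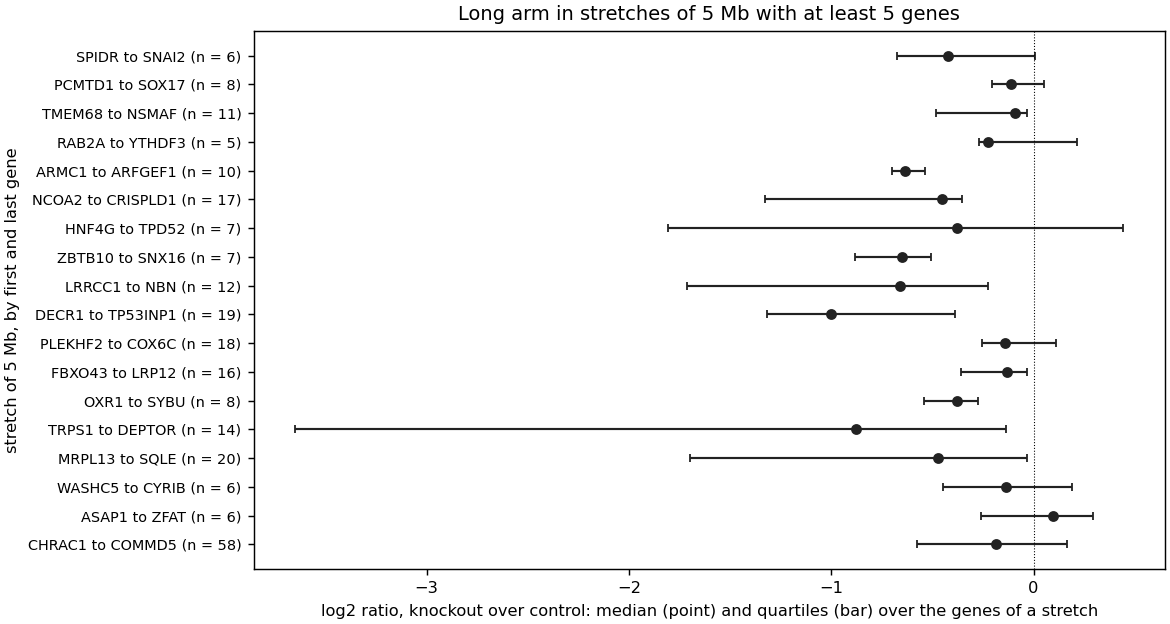
Median (point) and quartiles (bar) of the log2 ratio, labelled knockout over control (x axis), over the genes past the filter in each 5 Mb stretch with at least 5 of them (y axis, centromere at the top, named by first and last gene). Of 18 medians 17 are below 0; the lowest, -0.999, is DECR1 to TP53INP1, and the single positive one, 0.09, is ASAP1 to ZFAT.

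A small set of genes was close to silent in the labelled knockout libraries. Of 245 long arm genes with a control mean of at least 20, 16 (6.53%) had a mean of at most 3 in the labelled knockout group, against a background of 2.8% of 12088 genes. In the reverse direction 0 of 223 long arm genes met the same limits, against a background of 0.103%. Of these 16, 8 had 0 reads in all labelled knockout libraries, namely EYA1, MSC, TRPA1, PIP4P2, ANGPT1, AARD, HAS2 and ZHX2. In bulk RNA, fewer cells of a kind and less RNA per cell cannot be told apart, so a fall to 0 may be of either sort.

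EYA1, MSC and TRPA1 follow each other among the genes past the filter. EYA1, a phosphatase and transcriptional co-activator of organ development (chr8:71197433-71548104, minus strand), had 245, 222 and 228 normalized counts in the control libraries and 0 reads in the others, which is at least 225-fold lower. MSC, a basic helix-loop-helix repressor also called musculin (chr8:71841560-71844412, minus strand), went from 114, 123 and 135 to 0, at least 120-fold lower. TRPA1, an ion channel that irritant chemicals open and that lets calcium into the cell (chr8:72021250-72094885, minus strand), went from 96.0, 113 and 120.3 to 0, at least 106-fold lower. Each of these folds takes 3 reads over the group as the floor. No library of a group came near the other group for any of the 3 genes. The nearest genes past the filter on either side changed less, LACTB2 with a log2 ratio of -0.35 (not called) and TERF1 with -0.45. In the stretch from 70 to 75 Mb, EYA1, MSC and TRPA1 included, 14 of 17 genes were lower, 1 was higher and 2 were not called. Its median was -0.45, and 36.7% of all genes past the filter were lower.

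AARD (chr8:116938207-116944487, plus strand), a small protein with an alanine- and arginine-rich domain, had the lowest log2 ratio of the arm, beside EYA1, from which it differed by less than the spread of the control libraries. It stood at 239, 232 and 226 normalized counts in the control libraries and had 0 reads in the others, at least 226-fold lower. RAD21, which starts just before it, also fell but still stood at 3589.5 normalized counts on average. ANGPT1, a ligand of the TIE2 receptor of blood vessels, HAS2, which makes hyaluronan, and ZHX2, a homeobox repressor known in mouse liver for shutting off alpha-fetoprotein after birth, had control means of 25.4, 23.6 and 42.1 and 0 reads in the labelled knockout libraries. They were at least 24.8-, 22.9- and 40.9-fold lower.

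A second group kept 1 or 2 reads over the 3 labelled knockout libraries. FABP5, a fatty acid carrier (chr8:81280536-81284775, plus strand), stood at 133, 153 and 146 normalized counts in the control libraries and at 0.953, 0.977 and 0 in the others, a ratio of 209 with a 95% counting interval of 57.7 to 1735. RefSeq lists 15 pseudogene copies of FABP5, so its reads are uncertain. ZFHX4, a large zinc finger and homeobox factor, MMP16, a membrane-bound matrix protease, and TNFRSF11B, the secreted decoy receptor osteoprotegerin, each had 1 read in the labelled knockout libraries, and their ratios were 203 (36.1 to 8072), 224 (39.8 to 8880) and 200 (35.5 to 7926). CA2, a cytosolic carbonic anhydrase, had a ratio of 92.4 (25.3 to 769) and ESRP1, a splicing regulator of epithelial cells, one of 99.4 (17.5 to 3963). These intervals cover counting error only.

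SDC2, the cell surface proteoglycan syndecan-2 (chr8:96493601-96611790, plus strand), stood at 215, 223 and 199 in the control libraries and at 2.86, 1.95 and 4.76 in the others. TRPS1, a GATA-type repressor of cartilage and epithelium (chr8:115408496-115668975, minus strand), went from 440.4, 469 and 409.5 to 10.5, 15.6 and 5.95, a log2 change of -5.32 ± 0.25 (limma SE; limma adjusted p = 6.74e-11). DEPTOR, an inhibitor of the growth kinase mTOR, went from 131, 129 and 136 to 9.53, 3.91 and 3.57. In all 3 genes the lowest control library was far above the highest labelled knockout library.

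The steep falls were placed in the middle of the arm. Grouping the arm by eye after seeing the values, 11 of 80 genes from 70 to 100 Mb and 10 of 58 genes from 100 to 125 Mb had a log2 ratio at or under -3, while 0 of 40 genes before 70 Mb and 1 of 73 past 125 Mb did. Over the whole arm it was 22 of 251 (8.76%), against 507 of 12560 (4.04%) other genes. Of the 22, 6 stood directly next to another of them in the order of genes past the filter, and the other 16 lay between genes above -3. Without the 22, the median of the remaining genes was -0.38 from 70 to 100 Mb, -0.27 from 100 to 125 Mb and -0.27 over the arm. The 22 had a lower median control level per kilobase of transcript, 31.3, than the other called falls, at 145, and their median gene length was 70.1 kb against 34.6 kb. Neither trait was particular to the arm. Among other genes on the main chromosomes, the 487 at or under -3 had medians of 27.1 per kilobase and 46.6 kb. All 12254 such genes past the filter had medians of 115 and 31.1 kb.

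**Figure D4:**
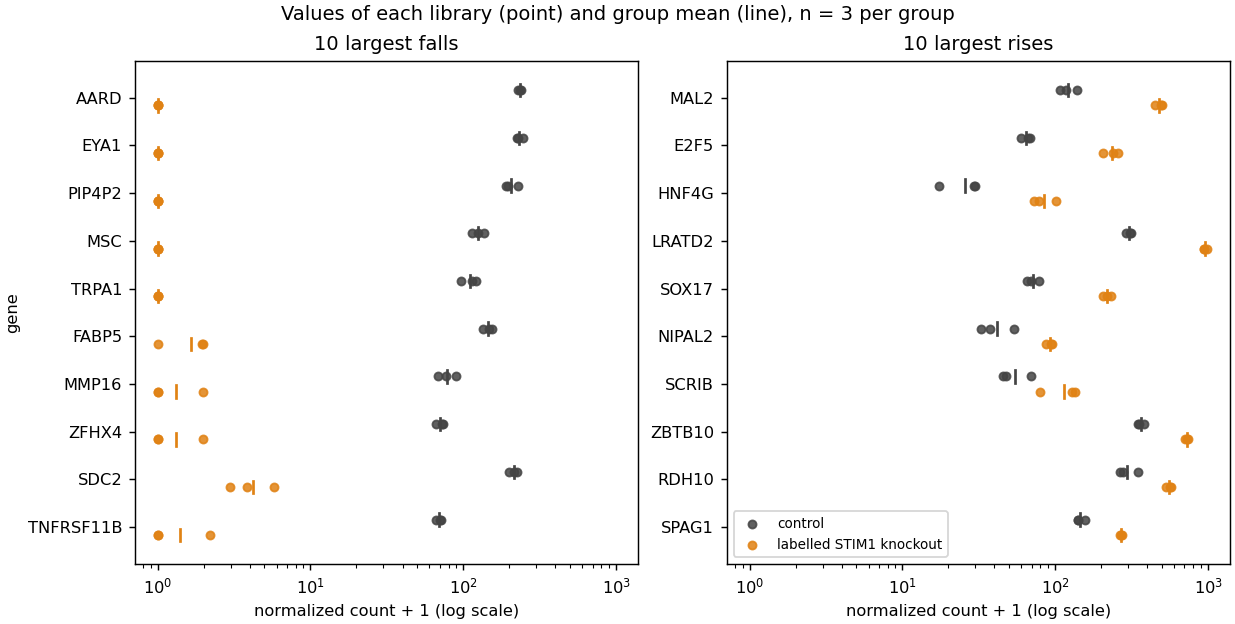
Normalized count plus 1 in each library (points, log axis) and group mean (line) for the 10 long arm genes of largest fall (left) and of largest rise (right), 3 libraries per group, grey for control and orange for labelled knockout. The groups do not overlap for any of the 20 genes. They were picked by size of change among called genes, so this follows largely from the choice. Over all genes, 33.2% do not overlap and are lower, and 29.9% do not overlap and are higher. EYA1, MSC, TRPA1, PIP4P2 and AARD have 0 reads in every labelled knockout library.

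Abundant genes moved too. ASPH, a calcium-binding hydroxylase of the endoplasmic reticulum whose gene also encodes junctin-type proteins of calcium stores (chr8:61500556-61714609, minus strand), stood at 15158, 15332 and 15228 normalized counts in the control libraries and at 2510.1, 2633 and 2524 in the others. The groups are far apart, and the log2 change was -2.58 ± 0.03 (limma SE; limma adjusted p = 3.89e-17). Its 5 Mb stretch as a whole had a median of -0.22, with 3 genes lower and 2 higher. By level, 19 of 44 long arm genes with a mean of 10 to 100 were called lower (43.2%, against 33.5% of other genes), 56 of 98 with a mean of 100 to 500 (57.1% against 36.3%), 35 of 57 with a mean of 500 to 1000 (61.4% against 36.4%) and 31 of 52 with a mean of at least 1000 (59.6% against 38.3%). Other abundant genes fell by less. In the stretches named for them by rule, RB1CC1, which starts autophagy, fell from 2434 ± 45.7 to 2147 ± 53.8 normalized counts, ARFGEF1, an exchange factor of the Golgi, from 1474 ± 23.3 to 1006 ± 8.26, and CPNE3, a calcium-dependent membrane-binding copine, from 2143 ± 17.1 to 1624 ± 39.1 (SD, n = 3 each). TPD52, a trafficking protein often gained in carcinoma, fell from 2499.8 ± 187 to 1925 ± 53.2, and ZFAND1, of stress granule clearance, from 849 ± 7.70 to 630.3 ± 44.7. ARFGEF1 overlaps CSPP1 and TPD52 overlaps MRPS28, so their reads are uncertain. At each of the 4 levels a larger share of the long arm than of the other genes was called lower.

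The functional lists below hold long arm genes only and were written with earlier results of these data known, so their counts are descriptions to be read beside the 251 genes as a whole, of which 141 were lower, 35 higher and 75 not called. Over all genes of the deposited table past the filter, 36.7% were called lower and 34.2% higher. Of 26 genes known for growth or for gain in liver cancer, 15 were lower, 4 higher and 7 not called, with a median log2 ratio of -0.36. MYC (chr8:127735434-127742951, plus strand) stood at 4426, 4186 and 4366 normalized counts in the control libraries and at 4483, 4496 and 4221 in the others. The groups overlapped and MYC was not called, with a log2 change of 0.02 ± 0.03 (limma SE; limma adjusted p = 0.537). PTK2, the focal adhesion kinase, was not called either (1801 ± 31.6 and 1722 ± 27.1, SD, n = 3 each). MTDH, a metastasis-associated protein, rose by 0.14 on the log2 scale, from 2552 ± 102 to 2819 ± 45.

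FAM83A, a signalling adaptor of the growth factor receptor pathway (chr8:123179047-123210079, plus strand), fell the most in that list after TRPS1. It stood at 1361, 1365 and 1345 normalized counts in the control libraries and at 69.6, 86.0 and 61.8 in the others. That is a log2 change of -4.22 ± 0.10 (limma SE; limma adjusted p = 4.83e-14), with no overlap. Among smaller falls, the adaptor YWHAZ, of the 14-3-3 family, went from 14579 ± 447 to 12516 ± 134, with 10 pseudogene copies in RefSeq.

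Of 18 genes of DNA replication, repair and cohesion, 13 fell, 2 rose and 3 were not called. Their median was -0.40, close to the -0.35 of the arm. RAD21, the cohesin subunit that closes the ring around sister chromatids (chr8:116845934-116874776, minus strand), stood at 11365, 11288 and 10832 normalized counts in the control libraries and at 3620.3, 3613 and 3535 in the others. The log2 change was -1.64 ± 0.03 (limma SE; limma adjusted p = 1.2e-15), the groups did not overlap, and per kilobase of transcript the level went from 3049.6 to 981. PRKDC, the catalytic subunit of the DNA-dependent kinase that joins broken ends, fell from 14870.5 ± 224 to 10547 ± 204. MCM4, a subunit of the replicative helicase and its neighbour, fell from 6429 ± 124 to 3859 ± 69.5, and NBN, of the MRN break sensor, from 847 ± 17.7 to 332 ± 30.3. NBN overlaps OSGIN2 on the other strand and whether the counting used strand is not given in the sources used here, so their reads are uncertain. ATAD2, a chromatin-bound ATPase that reads acetylated histones, fell from 2907 ± 60.8 to 1885 ± 85.4.

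E2F5, a repressor of the E2F family of cell cycle factors, rose. It stood at 66.9, 58.8 and 65.3 normalized counts in the control libraries and at 238, 205 and 257 in the others, a log2 change of 1.85 ± 0.13 (limma SE; limma adjusted p = 8.51e-09). Its neighbours went the other way: of the 12 genes from 85 to 90 Mb, 10 fell and 1 was not called, and E2F5 was the single rise. E2F5 overlaps RBIS, which leaves its reads uncertain in the same way.

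No gene of translation past the filter changed by as much as 1 on the log2 scale. Of 14, 7 were lower, 2 higher and 5 not called, with a median of -0.17. The log2 ratios ran from -0.44 to 0.64. The ribosomal protein genes RPS20, RPL7 and RPL30 fell from 5649.9 ± 227 to 4167 ± 147, from 14051 ± 325 to 10469.7 ± 302 and from 5479 ± 128 to 4682 ± 79.3 normalized counts. RefSeq lists 35, 61 and 16 pseudogene copies of them, so their values are uncertain. EIF3E, a subunit of translation initiation factor 3, fell from 5295 ± 161 to 4338 ± 62.7. PABPC1, the main cytoplasmic poly(A) binding protein, was not called at 18141 ± 203 and 17965 ± 407, and has 13 pseudogene copies. POP1, the scaffold of RNase P and RNase MRP, rose from 319 ± 16.5 to 499 ± 53.9.

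Of 15 genes of the ubiquitin system and proteasome, 10 were lower, 0 higher and 5 not called, with a median of -0.39 and a lowest log2 ratio of -0.69. COPS5, the protease of the COP9 signalosome (chr8:67043079-67062133, minus strand), stood at 1218, 1219.8 and 1311 normalized counts in the control libraries and at 794, 760.0 and 761 in the others. ELOC, an adaptor of cullin ubiquitin ligases that include the VHL ligase, fell from 938 ± 29.2 to 585 ± 20.6, with 33 pseudogene copies in RefSeq. Neither gene had overlapping groups.

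Mitochondrial and energy genes numbered 17, of which 9 were lower, 2 higher and 6 not called (median -0.35). MTFR1, a regulator of mitochondrial fission, fell from 1229 ± 69.4 to 665 ± 10.2, but it overlaps PDE7A, a cyclic AMP phosphodiesterase that fell from 790.3 ± 17.9 to 298 ± 15.7. CYC1, cytochrome c1 of respiratory complex III, fell from 2021 ± 84.8 to 1351 ± 51.8. In the short list of lipid, sterol and bile acid genes, 3 of 7 were lower, 1 higher and 3 not called (median -0.40). PEX2, a ubiquitin ligase of peroxisome assembly, fell from 760.5 ± 39.8 to 284 ± 10.4, and the 1 that rose, SQLE, a squalene epoxidase of cholesterol synthesis, went from 535 ± 16.3 to 653 ± 41.0. Of 11 enzymes of amino acids, sugars and carbonic acid, 7 were lower, 0 higher and 4 not called (median -0.59); ASPH, CA2 and HAS2 above are among them, as is EXT1, a heparan sulfate polymerase, which fell from 1008 ± 25.4 to 526 ± 51.4.

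Transcription factors moved in both directions. Of 21 past the filter, 11 were lower, 5 higher and 5 not called (median -0.35), and 6 more were under the filter. CEBPD, an inflammation-induced C/EBP factor beside the centromere (chr8:47736913-47738164, minus strand), fell from 475 ± 14.3 to 134 ± 13.9, and HEY1, a target and effector of NOTCH, from 694 ± 57.9 to 150.2 ± 11.7. The 5 that rose were SNAI2, SOX17, HNF4G, E2F5 and MAFA. SOX17, a factor of endoderm and bile duct development (chr8:54457935-54460892, plus strand), stood at 67.8, 64.6 and 77.8 normalized counts in the control libraries and at 204, 229.6 and 218 in the others. HNF4G, a relative of the hepatocyte factor HNF4A, stood at 28.2, 16.4 and 29.0 and at 71.5, 99.6 and 77.3, a log2 change of 1.74 ± 0.25 (limma SE; limma adjusted p = 1.54e-05). SNAI2, a repressor of epithelial genes also called SLUG, rose from 124 ± 14.8 to 191 ± 15.6.

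Of 15 genes of chromatin and RNA polymerase, 6 were lower, 3 higher and 6 not called (median -0.10). CHD7, a chromatin remodeller, rose from 1189 ± 32.3 to 1529 ± 11.2. Of 15 kinases, phosphatases and signalling genes, 9 were lower, 3 higher and 3 not called (median -0.32). Of 18 membrane transporters and channels only 7 passed the filter, and of these 2 were lower, 2 higher and 3 not called (median -0.04). NIPAL2, a relative of magnesium transporters, rose from 40.3 ± 11.1 to 90.8 ± 4.24.

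The secreted, matrix and cell surface genes had the lowest median of the 12 lists, -1.03 over 17 genes past the filter, of which 13 were lower, 1 higher and 3 not called; 14 more were under the filter. MMP16 and SDC2 above are its largest falls. MATN2, a matrix protein of the matrilin family, fell from 580.3 ± 19.1 to 101 ± 11 normalized counts. On the end of the arm, PSCA and LY6K of the LY6 family of surface proteins fell from 690.2 ± 34.6 to 356 ± 24.4 and from 301 ± 18.3 to 147 ± 8.98, whereas LY6E was not called at 42.3 ± 5.14 and 31.5 ± 8.79. LY6D, of the same family, fell further, from a mean of 54.3 (SD 18.9) to 2.17, a log2 ratio of -4.13. The 1 that rose was EPPK1, or epiplakin, which binds keratin filaments, from 1559 ± 64.1 to 2572 ± 56.4. The 99 genes in no list fell in about the same proportion as the arm: 54 lower, 15 higher and 30 not called, with a median of -0.36.

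**Figure D5:**
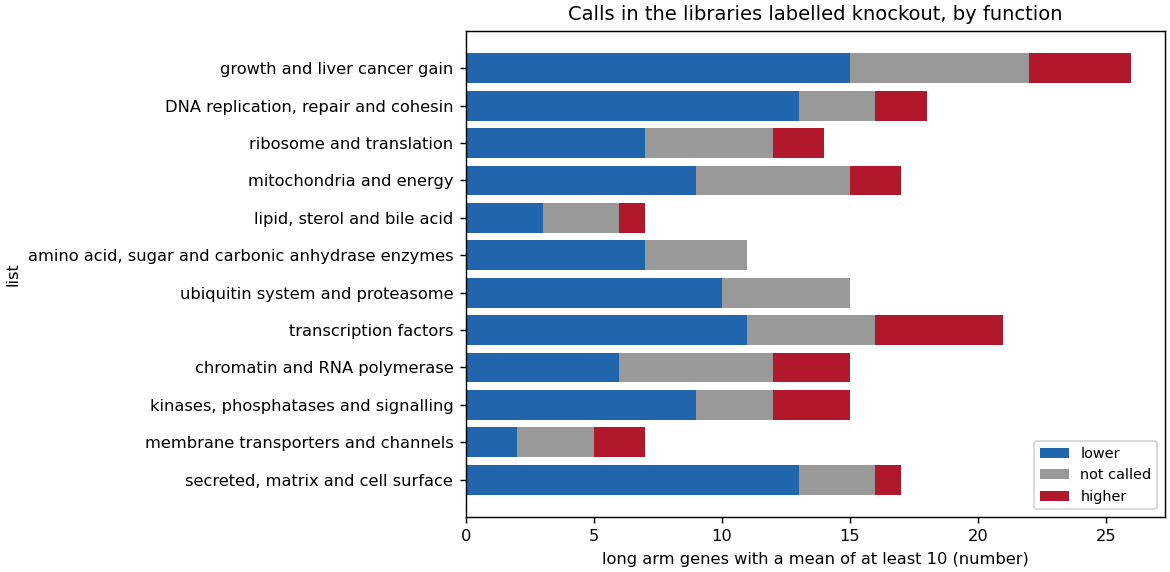
Number of long arm genes past the filter (x axis) called lower (blue), not called (grey) or called higher (red) by the authors' deposited table in each of 12 functional lists (y axis). Lower calls outnumber higher calls in 11 lists; the membrane transporters and channels have 2 of each. A gene may stand in more than 1 list.

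The rises were fewer and reached less far. MAL2, a protein of apical transport in hepatocytes (chr8:119208363-119245673, plus strand), stood at 117, 137 and 107 normalized counts in the control libraries and at 487, 497 and 451 in the others. Its log2 change of 1.99 ± 0.10 was the largest rise of the arm (limma SE; limma adjusted p = 1.97e-10). It lies between TNFRSF11B and DEPTOR, which both fell steeply. LRATD2, on the centromere side of MYC, rose from 304 ± 13.1 to 954 ± 20.9. ZBTB10, a zinc finger repressor, rose from 360.3 ± 16.8 to 723 ± 15.5, RDH10, which makes retinal from retinol, from 295 ± 46.9 to 555 ± 23.6, and SPAG1, an assembly factor of ciliary dynein, from 145 ± 9.26 to 268 ± 4.27.

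SCRIB, a scaffold of cell polarity near the chromosome end, stood at 68.7, 44.4 and 46.7 normalized counts in the control libraries and at 78.1, 133 and 128 in the others. The groups did not overlap but labelled knockout library A was close to control library A, and 0.623% of its reads lay in a copy on an alternate locus. AZIN1, an inhibitor of the antizyme that degrades ornithine decarboxylase, rose from 1921 ± 92.7 to 3357 ± 73.2, and AGO2, the slicing subunit of the RNA silencing complex, from 2351 ± 36.3 to 3537 ± 156. PLEC, the large cytolinker plectin, rose by 0.31 on the log2 scale from 15479 ± 214 to 19259 ± 544.

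NDRG1, a stress- and hypoxia-induced protein (chr8:133237175-133297252, minus strand), stood at 6712, 5065 and 4852 normalized counts in the control libraries and at 4364, 4279 and 4517 in the others. The adjusted p of the authors' deposited table was 0.073, so it was not called, while limma gave an adjusted p of 0.00298 for a log2 change of -0.32 ± 0.08. Control library A stood well above the other 2, and without it the limma log2 change was -0.18 (limma adjusted p = 0.00138). SPIDR, a scaffold of recombination repair and the first gene of the arm, fell from 851 ± 39.1 to 666 ± 41.7, and C8orf33, the last, from 1423 ± 70.9 to 1239 ± 36.2. The row before the centromere, HGSNAT, rose by 0.88 on the log2 scale.

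Of the 338 genes, 87 had a mean under 10, with a median of 1.01. By the authors' deposited table, lower calls numbered 8 among them (ST18, TOX, ZFPM2, RSPO2, ENPP2, DNAAF11, LYNX1 and MAPK15) and higher calls 0. In 36 of the 87 the labelled knockout libraries had 0 reads, and in 13 the control libraries did. Toward the chromosome end, 19 genes have a further copy on an alternate locus with an entry of its own, which can divide their reads. The largest such case with a change was VPS28, a subunit of the ESCRT-I sorting complex, with 83.5% of its reads in the copy. VPS28 was not called on the main chromosome, whereas with both entries added its log2 change was -0.79 ± 0.13 (limma SE; limma adjusted p = 7.58e-05).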

How the data were processed

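Per the labels' protocols, total RNA from 6 samples was made into libraries with a SMARTER mRNA-Seq kit and sequenced. Per the file headers, the deposited table gives for each gene the signal as a mean normalized count of each group, that is, counts divided by a size factor per library by the authors, and none per library. The fold change, a ratio of group means, and its log2 value were deposited by the authors without shrinkage, and are infinite for a group at 0. Each gene's p-value, raw and adjusted, comes from the comparison the authors deposited. The aligner, counter and annotation are not given in the sources used here. The submitters' processing notes name mouse builds, GRCm38 and mm10, whereas the table's chromosome accessions belong to human GRCh38, the build of all coordinates here. Another deposited table holds the same values in fewer columns and was left out.

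Group means are printed with 15 digits, from which the whole reads of each library were worked out. All combinations were tried up to a mean of 60; above that, a lattice search looked first for reads whose libraries lay no more than 50% from the mean, and ties went to the smallest spread, which favours a small SD. Reads of 1 gene were not settled in the labelled knockout group, and several sets fitted 6 control and 7 labelled knockout means, none of them on the long arm. On log2(normalized count + 1), limma 3.58.1 (R 4.3.3) was fitted to the 15253 genes whose mean reached 1, with trended empirical Bayes, and p-values were adjusted by Benjamini and Hochberg's method. Pairs of libraries within a group differed by more than sampling noise (chi-square per degree of freedom 1.86 to 2.38), so none was treated as a repeat. The fold against a group with 0 reads uses a floor of 3 reads over the group. Levels per kilobase use the deposited gene length. Centromere positions that divide other chromosomes into arms are approximate.

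The 53 genes named by rule are MYC, the 10 largest rises and falls among called genes past the filter, the 2 largest called changes of each list, the most abundant gene of each stretch, and the first and last gene. Others named were chosen after their values were seen. The genes and lists were chosen with earlier results of these data known. Alternatives were another threshold, a fold minimum, limma, limma-voom on the recovered reads, other pseudocounts, filters, scaling and stretch widths, copies on alternate loci added or left out, ZNF genes kept, and each library left out.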

Additional observations from a re-analysis of the deposited data

How the results depend on the processing

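The count of lower and of higher long arm genes stayed within 1.5 times of 149 and 35 at an adjusted p under 0.01 (138 and 34), with limma (162 and 41), with limma-voom (163 and 43), and with copies on alternate loci added (164 and 41). With a log2 size of at least 1 it was 59 and 8. Leaving out each library in turn, limma gave 154 to 159 lower and 35 to 41 higher. All 184 calls of the authors' deposited table were also called by limma, with the same sign. The median log2 ratio of -0.35 was -0.33 with a pseudocount of 10, -0.37 with no filter, -0.32 with a mean of at least 50, -0.33 with the median of all genes set to 0, -0.32 with ZNF genes kept, and -0.35 to -0.32 leaving out each library in turn. The median from 130 to 135 Mb turned from 0.09 to -0.35 with no filter. That turn came with the genes under a mean of 10 that the filter leaves out, and why their values differ was not tested. Of the other 17 stretch medians, 8 moved with no filter and 2 with a mean of at least 50, and none of the 17 changed sign. The lowest was -0.88 in stretches of 10 Mb and -1.35 as a running median. Of 53 genes named by rule, 52 kept their call in each setting run, and NDRG1 gained it with limma. The direction turned for 1, PABPC1, which was not called and went from -0.01 to 0.00321 without labelled knockout library C. No paired analysis was possible because the group means and recovered libraries carry no replicate number. The planned edgeR and DESeq2 fits were not run, since the deposited columns are not counts. Neither was run on the recovered reads, for which limma-voom was used. Depth limits what can be called among the 87 genes under a mean of 10.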
